A study of Danio rerio with 6 samples.

Results

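Hearts without *mdka*, the zebrafish midkine a gene for a secreted growth factor, held 24 named genes at 42.4% to 73.7% of their WT level at 7 days post-cryoinjury (dpci), with every KO pool below every WT pool. They include a vasopressin receptor, a natriuretic peptide gene, a phospholamban gene, the basement membrane genes *fras1* and *lama2*, and the striated muscle genes *spega*, *myoz1b*, *asb5b* and *nmrk2*. The genes were selected on their CPM in these same pools. Expression was taken as CPM, the count per 1000000 counts of its library. It had to average at least 2 in KO hearts, and the highest KO pool could reach at most 0.8 times the lowest WT pool. Of 32520 genes in the table, 34 met both conditions and 29 of them had a zebrafish symbol in the rows of the study's gene table used here. Taking out chromosome 7, where *mdka* lies, and fixed families such as collagens, integrins, solute carriers, ion channels and respiratory chain subunits, and a few single genes such as *nkx2.5* and *tbx5a*, left the 24. Since the KO and WT values themselves chose these genes, their differences are given as a description and without a test.

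The RNA came from cryoinjured ventricular apexes of adult zebrafish of the AB background. KO fish carried the frameshift allele *mdka* cn105, made with CRISPR/Cas9, and WT fish were *mdka* +/+ from crosses of the same fish. Each genotype gave 3 libraries, each from a pool of 3 apexes, so 1 allele and 3 pools stand for the KO and the spread given is that between pools. All hearts were injured, and uninjured hearts were not analysed here.

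Library totals were between 18940128 and 25195457 expected counts. The targeted gene *mdka* had 83.2 to 148 CPM in KO pools, against 399.6 to 1018 CPM in WT pools. The count table was tested with edgeR's quasi-likelihood test after TMM scaling, which evens out differences in library composition. A gene is called lower or higher here at an unadjusted p under 0.05, the study's own threshold. By that measure 6.42% of 17879 tested genes were lower in KO hearts and 5.64% were higher, and 1 gene (0.00559%) had a Benjamini-Hochberg adjusted p under 0.05. Scaling mattered for the choice of the genes. With CPM of library sums, 0.237% of the 14365 genes with enough KO signal met the rule, and 2.70% of 14038 met its mirror image in the higher direction. With TMM-scaled CPM these shares were 0.823% and 1.29%, and with relative log expression factors 0.831% and 1.26%. All 24 genes still met the rule under both. TMM factors were 1.02 to 1.07 in KO libraries and 0.932 to 0.974 in WT libraries, which lowers KO values against WT values. Under TMM no gene could therefore lose the 0.8 limit.

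In the contracting ventricle, calcium leaves the sarcoplasmic reticulum (SR, the calcium store of the muscle cell) through ryanodine receptors and is pumped back by SERCA, a pump that phospholamban inhibits. Force passes along the Z-disc, which anchors the thin filaments, and through the dystrophin complex to laminin outside the cell. Natriuretic peptides are hormones released by stretched heart muscle, and vasopressin receptors and Frizzled receptors relay hormone and Wnt signals across the membrane. Wear of proteins in muscle is met by the proteasome and by FoxO factors, which in mammals drive genes of protein breakdown.

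The deepest differences were in a receptor, a hormone and a calcium regulator. The vasopressin receptor gene *avpr1ab* (ENSDARG00000045788, chromosome 4 of GRCz11, 9207722 to 9214288) had 3.93, 7.09 and 5.02 CPM in KO pools (replicates 2, 3 and 4), against 15.2, 12.6 and 10.1 CPM in WT pools (replicates 1, 2 and 4). The highest KO pool reached 0.703 times the lowest WT pool. After TMM scaling its log2 fold change, KO over WT, was -1.39 with a standard error (SE) of 0.25. The natriuretic peptide gene *nppal* (ENSDARG00000052948, chromosome 8, 48603398 to 48604351) had 26.8, 9.96 and 18.4 CPM in KO pools and 35.1, 41.0 and 51.9 CPM in WT pools. It varied more between KO pools than any other of the 24, by 2.69 times from the lowest to the highest, and its log2 fold change was -1.34 (SE 0.34).

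The gene listed as *si:ch211-270g19.5* (ENSDARG00000097256, chromosome 17, 15297398 to 15305586) carries the name *pln2* in the annotation used here, a phospholamban gene. It had 79.2, 66.3 and 89.4 CPM in KO pools and 236, 166 and 133 CPM in WT pools. The groups stood well apart, at 0.672 for the highest KO over the lowest WT pool, the smallest such ratio of the 24, although the WT pools differed among themselves. Its mean was 78.3 ± 11.6 CPM in KO hearts and 179 ± 52.5 CPM in WT hearts (SD, n = 3 each).

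The basement membrane genes *fras1* and *lama2* stood at 44.9% and 51.7% of WT. *fras1*, whose product forms with the Frem proteins a complex in the basement membrane under epithelia, had 6.75, 9.46 and 7.76 CPM in KO pools, against 21.1, 12.0 and 20.3 CPM in WT pools. WT replicate 2 stood below the other WT pools and came closest to the KO values. *lama2* (chromosome 20, 1903481 to 1979652), the laminin alpha chain of muscle basement membranes, had 3.81, 2.53 and 2.48 CPM in KO pools and 5.28, 6.76 and 5.02 CPM in WT pools. These are low levels, and the smallest count behind *lama2* was 47 in 1 KO library.

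Among the muscle genes, *nmrk2* (chromosome 2, 55982300 to 55990329) had 262.8, 234.5 and 209.8 CPM in KO pools, against 342.7, 413.3 and 329.0 CPM in WT pools. It encodes a nicotinamide riboside kinase, an enzyme of NAD synthesis. *asb5b*, of the ankyrin and SOCS box family of ubiquitin ligase adaptors, had 79.3, 95.4 and 58.5 CPM in KO pools and 128, 133 and 133 CPM in WT pools, so that the WT pools nearly coincided while the KO pools spread. *spega*, a kinase gene of striated muscle, had 75.7, 75.8 and 63.0 CPM in KO pools and 101, 120 and 96.1 CPM in WT pools. *myoz1b*, which codes for a Z-disc protein that binds calcineurin, had 6.51, 5.50 and 5.60 CPM in KO pools, against 10.0, 8.93 and 10.9 CPM in WT pools. Their log2 fold changes were -0.75, -0.89, -0.70 and -0.90, in that order, with SEs between 0.13 and 0.17.

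Of the genes for protein turnover and transcription, *psme4a* (chromosome 13, 35689749 to 35744963) had 26.8, 49.3 and 40.5 CPM in KO pools and 62.7, 72.8 and 74.0 CPM in WT pools. Its product caps the proteasome core as an activator. *nfe2l1a* encodes a bZIP factor that in mammals drives proteasome genes. It had 17.0, 10.2 and 16.1 CPM in KO pools and 23.3, 22.1 and 22.6 CPM in WT pools, with KO replicate 3 standing lowest. *foxo3b*, a FoxO factor gene on chromosome 20, had 68.2, 54.8 and 60.7 CPM in KO pools and 104, 87.7 and 86.5 CPM in WT pools. *hlfa*, of the PAR bZIP factors that follow the circadian clock, showed the shallowest difference. Its mean was 33.96 ± 2.30 CPM in KO hearts and 46.1 ± 1.78 CPM in WT hearts (SD, n = 3 each), or 73.7% of the WT mean.

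The remaining annotated genes act in signalling, splicing and lipid metabolism. The Wnt receptor gene *fzd9b* had 23.8, 17.4 and 25.4 CPM in KO pools and 44.5, 39.4 and 36.8 CPM in WT pools, which puts it with *pln2* and *avpr1ab* among the genes with the widest gap. *pkib*, an inhibitor of protein kinase A, had 7.98, 9.12 and 8.92 CPM in KO pools and 19.2, 14.2 and 11.4 CPM in WT pools. *b4galnt1a*, whose mammalian ortholog makes gangliosides, had 17.5, 17.3 and 18.5 CPM in KO pools, against 51.2, 24.3 and 26.9 CPM in WT pools. The KO pools were nearly equal, and WT replicate 1 was far above the other WT pools. Without that library the log2 fold change of *b4galnt1a* was -0.65, compared with -1.09 in all 6 libraries. *srrm4*, a splicing regulator known for neuronal microexons, averaged 8.72 ± 1.11 CPM in KO hearts and 16.1 ± 4.47 CPM in WT hearts (SD, n = 3 each). *acot11b*, an acyl-CoA thioesterase gene, averaged 30.98 ± 1.76 CPM in KO hearts and 47.97 ± 3.87 CPM in WT hearts (SD, n = 3 each).

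Another 6 genes carry only clone-based names, and no role is given to them here. *si:ch73-43g23.1* (chromosome 14) had 46.0, 41.2 and 41.5 CPM in KO pools and 84.1, 71.3 and 65.2 CPM in WT pools. *si:ch211-28p3.4* (chromosome 12) had 12.7, 10.9 and 9.40 CPM in KO pools and 29.2, 16.3 and 24.6 CPM in WT pools. For these 2 the highest KO pool reached 0.707 and 0.775 times the lowest WT pool, in that order. The other 4, *zgc:173742*, *sb:cb470*, *si:dkey-239i20.2* and *si:dkey-242h9.3*, had KO means of 2.2 to 4.34 CPM and WT means of 3.52 to 6.96 CPM.

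**Figure D1:**
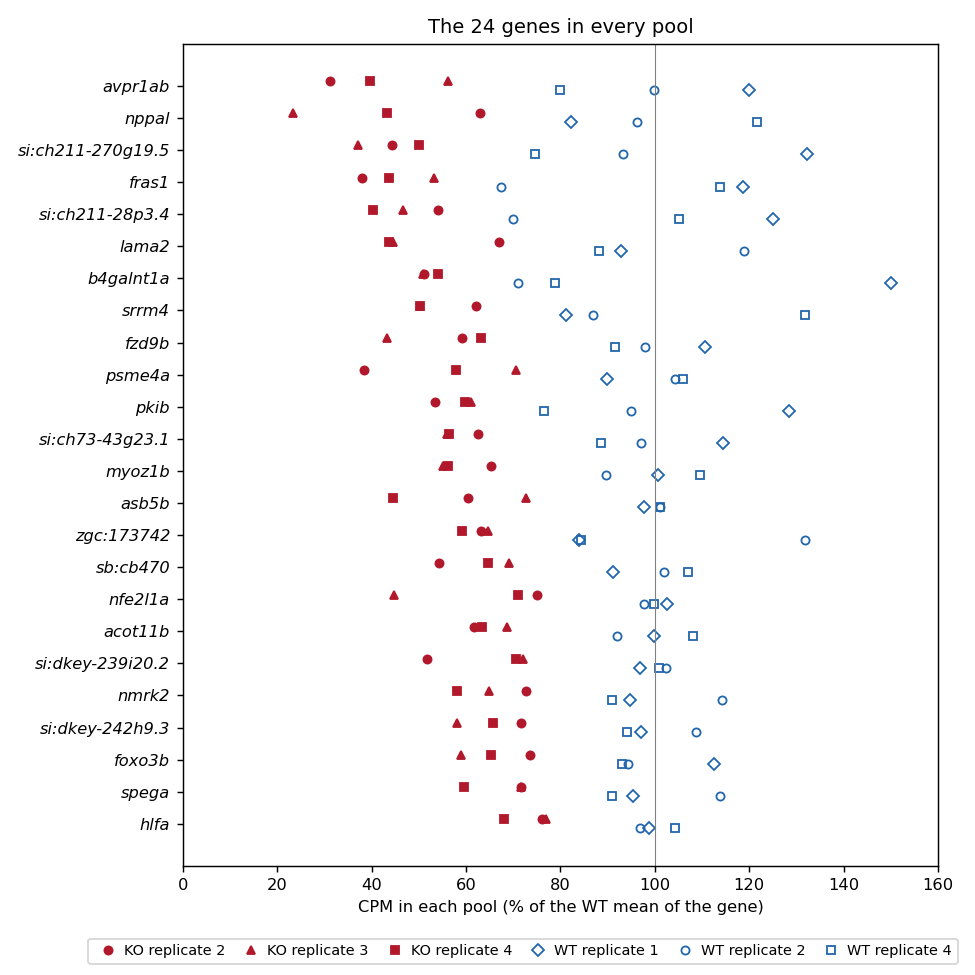
CPM of each of the 24 genes in every pool, as a percentage of that gene's WT mean (x axis), with KO pools as filled and WT pools as open symbols and genes ordered by their KO mean. KO pools lie left of WT pools in every row because the genes were chosen so, and KO means run from 42.4% for *avpr1ab* to 73.7% for *hlfa*.

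Which pool stood lowest or highest differed between genes. KO replicate 2 was the lowest KO pool for 7 genes, replicate 3 for 9 and replicate 4 for 8. WT replicate 1 was the highest WT pool for 10 genes, replicate 2 for 7 and replicate 4 for 7. The highest pool exceeded the lowest by a median of 1.26 times within KO and 1.25 times within WT. The limit of 0.8 is not a natural border. Just inside it lay *nmrk2* (0.799), *pkib* (0.797) and *hlfa* (0.795), and just outside it *ppp2r5a* (0.802), *nexn* (0.803) and *mylk2* (0.804). The thymoproteasome-type subunit gene *psmb11b* was left out by its KO mean of 1.99 CPM alone. It was not the only such gene, since 32 genes met the rule with a minimum of 1 CPM.

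Zebrafish keep extra copies of many genes, and relatives of the 24 were taken by family. Like the lists below, they were chosen with earlier results of these data known, and some families were taken more widely than others. Of 25 relatives tested, 3 were lower in KO hearts (12.0%), 2 were higher (8.0%) and 20 did not pass. Among all tested genes, 6.42% were lower and 5.64% were higher. The second vasopressin V1a-type gene, *avpr1aa*, fell with *avpr1ab*. It had 13.2, 16.1 and 11.5 CPM in KO pools and 20.1, 27.5 and 17.6 CPM in WT pools, with no overlap (log2 fold change -0.82, SE 0.20, edgeR adjusted p = 0.213). The copy *asb5a* also fell, to 6.46 ± 0.85 CPM in KO hearts, against 8.93 ± 0.45 CPM in WT hearts (SD, n = 3 each; log2 fold change -0.60, SE 0.17, edgeR adjusted p = 0.236). A *MYOZ2* gene (ENSDARG00000037266) fell by 0.41 on the log2 scale (SE 0.16, edgeR adjusted p = 0.370), a call that was lost with library size scaling (-0.27) and without KO replicate 3, KO replicate 4, WT replicate 1 or WT replicate 2.

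Relatives of the basement membrane genes differed in direction. The laminin alpha gene *lama1* rose while *lama2* was among the lower genes. Its CPM were 6.91, 7.63 and 8.08 in KO pools and 3.59, 3.28 and 4.06 in WT pools (log2 fold change 0.91, SE 0.17, edgeR adjusted p = 0.162). The Frem gene *frem2b* rose too, to 33.2 ± 6.63 CPM in KO hearts, against 19.9 ± 3.05 CPM in WT hearts (SD, n = 3 each; log2 fold change 0.60, SE 0.19, edgeR adjusted p = 0.281). Its call was lost without KO replicate 2, where the log2 fold change was 0.39. The vascular laminin gene *lama4* was at -0.01 on the log2 scale (SE 0.12) and *LAMA5* at 0.05 (SE 0.15), and neither passed.

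For several genes of the set the second copy gave an estimate near 0. The log2 fold change was 0.06 (SE 0.14) for *nfe2l1b*, 0.20 (SE 0.17) for *foxo3a*, -0.19 (SE 0.15) for *spegb*, -0.19 (SE 0.11) for the other *PSME4* gene and -0.07 (SE 0.20) for the other *FZD9* gene. None of these 5 passed edgeR's test, and the difference between copies was not tested because one of each pair was chosen for its value. For the natriuretic peptide genes *nppa* and *nppb* the estimates were -0.33 (SE 0.18) and -0.45 (SE 0.38), and neither passed. *nppb* had 1061, 345 and 860 CPM in KO pools and 752, 1115 and 973 CPM in WT pools, so its groups overlapped, and KO replicate 3 was the lowest pool for *nppb* as for *nppal*. The other relatives that did not pass lay on both sides of 0 on the log2 scale. Below 0 were *nppc* (-1.30), *ACOT11* (-0.63), *FREM3* (-0.62), *FREM1* (-0.50), *PKIG* (-0.44), *frem1b* (-0.28), *nmrk1* (-0.23), *myoz3a* (-0.16) and *MYOZ1* (-0.08). Above 0 were the other *MYOZ2* gene (0.24) and *FREM2* (0.85). The estimate for *nppc* rested on WT replicate 2, without which it was 0.52. A further 6 (*nppcl*, *lama3*, *B4GALNT1*, *srrm3*, *PSMB11* and *HLF*) had too few counts to be tested. Of these, *PSMB11* is a relative of *psmb11b*, which is not among the 24. RSEM shares out reads that match several genes. Counts of 21 of the 24 genes were whole numbers in every library, and those of *avpr1ab*, *srrm4* and *si:dkey-239i20.2* were not.

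**Figure D2:**
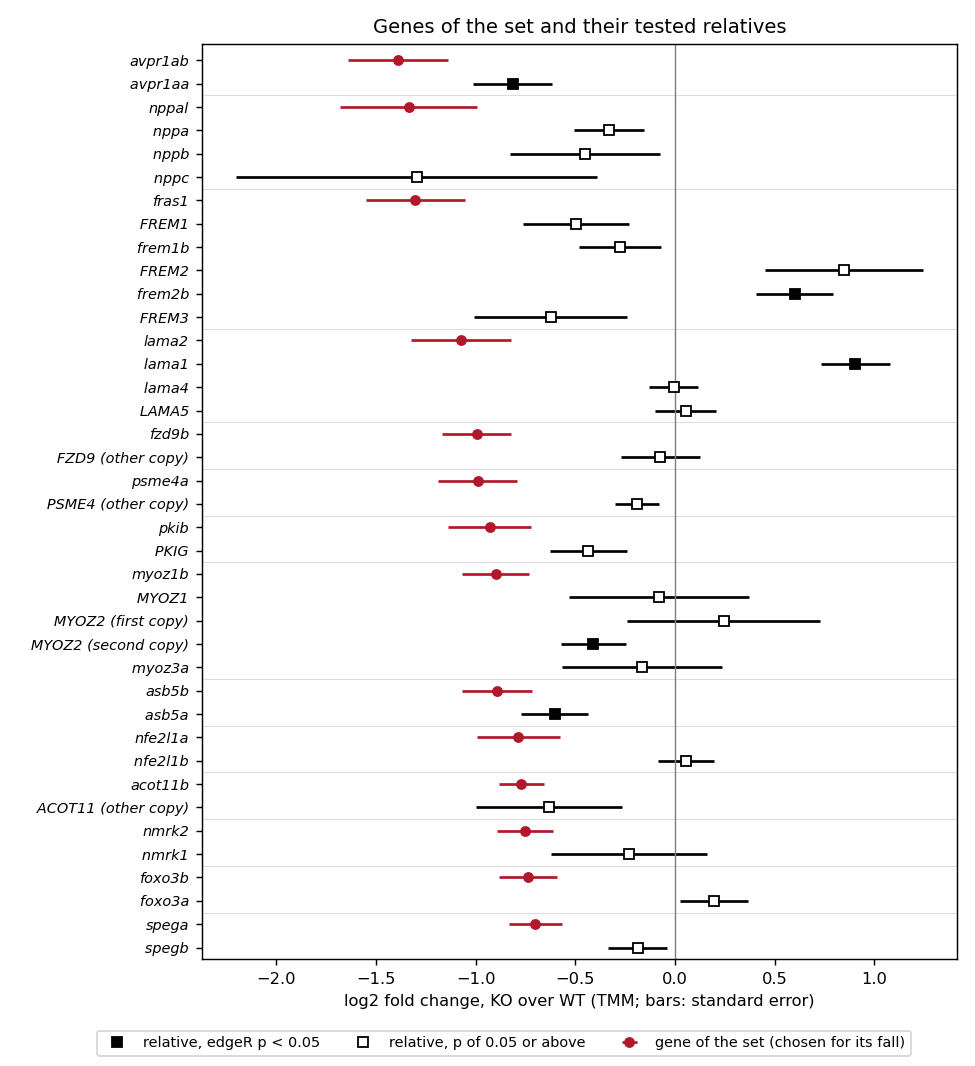
Log2 fold change, KO over WT, after TMM scaling (x axis, bars are standard errors) for 14 genes of the set (circles, chosen for their fall and not tested) and their 25 tested relatives (squares, filled where edgeR's unadjusted p was under 0.05). Filled squares lie left of 0 for *avpr1aa*, *asb5a* and 1 *MYOZ2* gene and right of 0 for *lama1* and *frem2b*.

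Cardiomyocyte markers were also lower in KO hearts, the direction for which the 24 genes were chosen. In bulk tissue, fewer cells of a type and less RNA per cell cannot be told apart. The summed CPM of 6 markers (*nppa* among them) was 44050, 42820 and 37800 in KO pools and 51800, 48310 and 48600 in WT pools. In edgeR's test 5 of the 6 (*MYL7*, *cmlc1*, *tnnt2a*, *tnni1b* and *actc1a*) were lower (83.3%, with 6.42% of all tested genes lower). The smallest edgeR adjusted p of the 6 was 0.192, and their median log2 fold change after TMM scaling was -0.39. The KO mean of the sum was 83.8% of the WT mean. Divided by this sum, the 24 genes stood at 50.9% to 87.9% of WT, with a median of 70.1%, against 42.4% to 73.7% and a median of 58.6% before. On that scale 22 of the 24 kept KO and WT pools apart, *pkib* and *si:dkey-239i20.2* overlapped, and 1, *avpr1ab*, stayed within the 0.8 limit. The 24 had been chosen at 0.8 or less in these same pools, so the count kept apart is no separate result. The share of all genes kept apart on that scale is not given here. This scale was chosen after seeing the data.

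**Figure D3:**
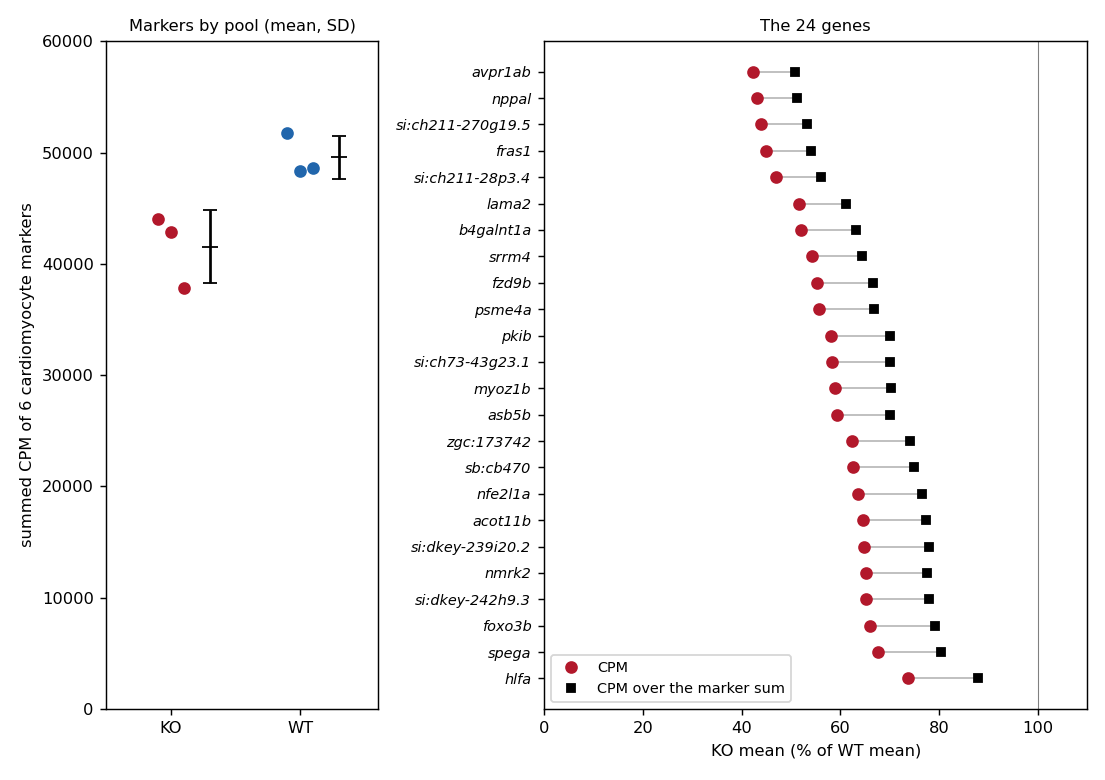
Left, summed CPM of 6 cardiomyocyte markers in each KO and WT pool with mean and SD. Right, KO mean as a percentage of the WT mean for the 24 genes, from CPM (circles) and from CPM divided by the marker sum of the same pool (squares), where the median moves to 70.1% from 58.6%.

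Sums of markers of other cells are given as CPM of library sums, a scale that lies higher in KO pools than TMM does. The erythrocyte sum (4 genes) was 4388 to 9582 CPM in KO pools and 2502 to 4615 CPM in WT pools. That of epicardium and fibroblasts (8 genes) was 6626 to 8786 CPM in KO pools and 5481 to 6973 CPM in WT pools. Outflow tract smooth muscle (6 genes) summed to 1158 to 1254 CPM in KO pools and 786.5 to 997.8 CPM in WT pools, endothelium (5 genes) to 999 to 1160 CPM in KO pools and 870.0 to 992 CPM in WT pools, and macrophages and neutrophils (12 genes) to 361 to 457 CPM in KO pools and 241 to 360.2 CPM in WT pools. The erythrocyte and the epicardial ranges overlapped between genotypes. After TMM scaling the median log2 fold change was 0.75 over the erythrocyte markers tested, 0.41 over those of smooth muscle, 0.04 over endothelium, 0.07 over epicardium and fibroblasts, and -0.05 over macrophages and neutrophils. In edgeR's test 2 of 3 erythrocyte markers (66.7%) and 2 of 5 smooth muscle markers (40.0%) were higher. For macrophages and neutrophils 3 of 10 were higher (30.0%) and 1 was lower. The 12 genes of that list came from 6 marker symbols, because every gene sharing an annotation name was taken. In the same way 6 smooth muscle genes came from 4 symbols, and 5 neuronal genes from 3. Endothelium had 1 of 5 higher and 1 lower, and epicardium and fibroblasts 1 of 8 higher. Of all tested genes, 5.64% were higher and 6.42% lower. The skeletal muscle sum (5 genes), nearly all of it *ckma*, which the heart also expresses, was 1458 to 1972 CPM in KO pools and 2429 to 2674 CPM in WT pools. The other 4 skeletal muscle markers had log2 fold changes above 0 (0.54 to 1.80), none of which passed. Neuronal markers (5 genes), relevant to *srrm4*, summed to 14.2 to 23.7 CPM in KO pools and 7.01 to 26.5 CPM in WT pools, with full overlap. No marker was at 0 in all libraries, and the part of these cells in the differences of the 24 genes was not tested.

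Genes that work with the 24 were followed in lists, counted without the 24 themselves. Across 311 such genes, 60 were called in 1 direction or the other, where 6.42% of all tested genes were lower and 5.64% were higher. The 60 had edgeR adjusted p-values between 0.0735 and 0.414. Of the 311, none was under 0.05 after adjustment in edgeR, and 21 were in DESeq2's test. The median log2 fold change of all tested genes was -0.01.

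SR calcium handling, the setting of *pln2*, had the largest share of lower genes among the 11 lists. Of 25 genes, 12 were lower (48.0%, with 6.42% of all tested genes lower) and 0 were higher, with a median log2 fold change of -0.44. This list was added once the name *pln2* had been found. The other phospholamban gene, *pln1*, had 2034, 2054 and 1619 CPM in KO pools and 2250, 2612 and 2261 CPM in WT pools (log2 fold change -0.46, SE 0.14, edgeR adjusted p = 0.264). The SERCA gene *atp2a2a*, the most highly counted of the list, averaged 2680 ± 313 CPM in KO hearts and 3593 ± 788 CPM in WT hearts (SD, n = 3 each; log2 fold change -0.56, edgeR adjusted p = 0.314). Triadin (*trdn*), which ties the ryanodine receptor to calsequestrin, showed the smallest p of the list. It had 117, 139 and 110 CPM in KO pools and 229.6, 170.1 and 189.5 CPM in WT pools (log2 fold change -0.83, SE 0.16, edgeR adjusted p = 0.162). Sarcalumenin (*srl*), *ryr3*, calsequestrin *casq1b* and the sodium-calcium exchanger *slc8a1a* fell by 0.56, 0.48, 0.62 and 0.59 on the log2 scale. With library size scaling 6 of the 25 were lower, 1 was higher and the median was -0.30. Without KO replicate 4, 7 were lower, and 3 were higher without WT replicate 2 and 1 without WT replicate 4. With the replicate number as a block in the model, 9 were lower and 3 were higher. The 6 cardiomyocyte markers had a median log2 fold change of -0.39 after TMM scaling and -0.25 with library size scaling. Their summed CPM of library sums stood at 83.8% of WT in the same pools.

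Among 35 Z-disc and muscle scaffold genes, 10 were lower (28.6%, with 6.42% of all tested genes lower) and 2 were higher, with a median of -0.20. *nexn*, a filament-binding Z-disc gene, averaged 473 ± 18.3 CPM in KO hearts and 632 ± 21.3 CPM in WT hearts (SD, n = 3 each; log2 fold change -0.56, SE 0.10, edgeR adjusted p = 0.161). The small heat shock gene *hspb7*, the myosin chaperone gene *unc45b*, *synpo2lb* and *asb5a* fell by 0.59, 0.73, 0.63 and 0.60 on the log2 scale, and alpha-actinin *actn2b*, the most highly counted, by 0.47. The chaperone gene *cryabb* rose from a low level, with 4.71 ± 0.86 CPM in KO hearts and 1.59 ± 0.45 CPM in WT hearts (SD, n = 3 each; log2 fold change 1.42, edgeR adjusted p = 0.168). Library size scaling left 5 lower genes and 2 higher ones, with a median of -0.08. With any 1 library but WT replicate 4 left out, 1 gene was higher. The cardiomyocyte marker sum was lower in the same pools here too.

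The dystrophin complex, which laminin binds through dystroglycan, had 6 of 22 genes lower (27.3%, with 6.42% of all tested genes lower) and 1 higher. Its median was -0.11. The sarcoglycan genes *sgca*, *sgcd* and *sgcb* fell by 0.78, 0.47 and 0.28 on the log2 scale, and *DTNA* by 0.94. The gene that rose was *large2*, a glycosyltransferase that adds the laminin-binding sugar to dystroglycan. It had 21.9, 25.3 and 25.3 CPM in KO pools and 10.8, 11.5 and 11.4 CPM in WT pools (log2 fold change 0.97, SE 0.11, edgeR adjusted p = 0.0735). *dtnba*, the most highly counted, had a log2 fold change of -0.29 (SE 0.13) and did not pass. Without KO replicate 4, 2 genes of the list were lower, and with library size scaling 4 were, with the median at 0.03 and so above 0. The cardiomyocyte marker sum was lower in the same pools.

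Of 25 other laminin and Fraser genes, 2 were lower (8.0%) and 3 were higher (12.0%). Among all tested genes, 6.42% were lower and 5.64% were higher. *lamb2*, a laminin beta chain of muscle, fell by 0.37 and *grip2a* by 0.69 on the log2 scale. Nidogen *nid2a*, which links laminin to collagen IV, rose with *lama1* and *frem2b*, to 67.1 ± 11.6 CPM in KO hearts, against 32.8 ± 2.52 CPM in WT hearts (SD, n = 3 each; log2 fold change 0.89, edgeR adjusted p = 0.119). Without WT replicate 1, 5 genes of the list were lower.

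The proteasome list is given beside *psme4a* and *nfe2l1a*. Those 2 were chosen for their fall, so the contrast with the list was not tested. Of 58 tested genes, 1 was lower (1.72%, with 6.42% of all tested genes lower) and 0 were higher, with a median log2 fold change of 0.03. The gene that fell was *psmb11b*, at 1.98, 2.23 and 1.77 CPM in KO pools and 4.63, 3.09 and 2.97 CPM in WT pools (log2 fold change -0.97, SE 0.27, edgeR adjusted p = 0.236). The most highly counted subunit gene, *PSMD1*, had a log2 fold change of 0.03 (SE 0.16). Up to 7 proteasome genes were called higher in other settings, the most of them without WT replicate 1, with 4 under library size scaling and 2 without WT replicate 4.

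FoxO family genes and targets, the setting of *foxo3b*, moved both ways, with 4 of 43 lower (9.30%), 3 higher (6.98%) and a median of 0.00. For this list and the clock genes below, the shares among all tested genes were 6.42% lower and 5.64% higher. The muscle ubiquitin ligase genes *trim63b* and *trim63a* fell by 0.52 and 0.43 on the log2 scale, the autophagy kinase gene *ulk1a* by 0.57 and *SOD2* by 0.30. *sesn1* and *tsc22d3* rose, with log2 fold changes of 0.40 and 0.58. Without KO replicate 4, 2 genes of the list were lower and 1 was higher, and without KO replicate 3, 1 was higher. Without WT replicate 2 or WT replicate 4, 5 were higher. *TXNIP* (ENSDARG00000036107), the most highly counted, was at 0.43 on the log2 scale (SE 0.20) and did not pass. Of 38 clock and PAR bZIP genes, 2 were lower (5.26%) and 4 were higher (10.5%). The repressor gene *nfil3* fell by 0.53 on the log2 scale, to 35.5 ± 1.42 CPM in KO hearts, against 46.6 ± 1.51 CPM in WT hearts (SD, n = 3 each; edgeR adjusted p = 0.164), and *cry1a* fell by 0.34. The clock repressors *ciarta*, *ciartb* and *bhlhe41* rose, with log2 fold changes of 0.92, 0.65 and 0.53, and *NR1D2* with 0.38, while *cry3a* had one of -0.16 (SE 0.16). Library size scaling raised the count of higher clock genes to 9, and so did leaving out WT replicate 2. Without KO replicate 2, 1 clock gene was higher, and without WT replicate 1, 4 were lower.

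In NAD synthesis, the pathway of *nmrk2*, 2 of 20 genes were lower (10.0%, with 6.42% of all tested genes lower) and 0 were higher. *nampta*, the salvage enzyme gene, had 38.5, 43.4 and 36.6 CPM in KO pools and 66.8, 51.8 and 58.5 CPM in WT pools (log2 fold change -0.72, SE 0.14, edgeR adjusted p = 0.162). The mitochondrial transhydrogenase gene *nnt* fell by 0.51 on the log2 scale. The count of lower genes was 2 in each of the 13 other settings. Among 14 natriuretic and vasopressin genes, *avpr1aa* and the oxytocin receptor-like gene *oxtrl* (log2 fold change -0.94, SE 0.27) were the 2 lower ones. That is 14.3%, with 6.42% of all tested genes lower, and without WT replicate 1 there were 4 lower ones. Among 17 Wnt receptor genes, *fzd5* and *LRP6* fell by 0.65 and 0.41 on the log2 scale (11.8%, with 6.42% of all tested genes lower). *FZD2*, the most highly counted, had a log2 fold change of -0.07 (SE 0.11). The count of lower Wnt receptor genes was 1 without KO replicate 2, without WT replicate 1 or with library size scaling, and 4 without WT replicate 2. In ganglioside synthesis and breakdown, beside *b4galnt1a*, 4 of 12 genes were higher (33.3%, with 5.64% of all tested genes higher) and 0 were lower. The count of higher ganglioside genes was 2 with the replicate block, 5 with library size scaling and 3 or 4 in the other settings. Lysosomal *gm2a*, *glb1* and *NEU1* rose, by log2 fold changes of 0.51, 0.44 and 0.32 in KO hearts. The sialyltransferase gene *st3gal1* had 13, 27 and 17 counts in KO libraries and 1, 0 and 0 counts in WT libraries.

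**Figure D4:**
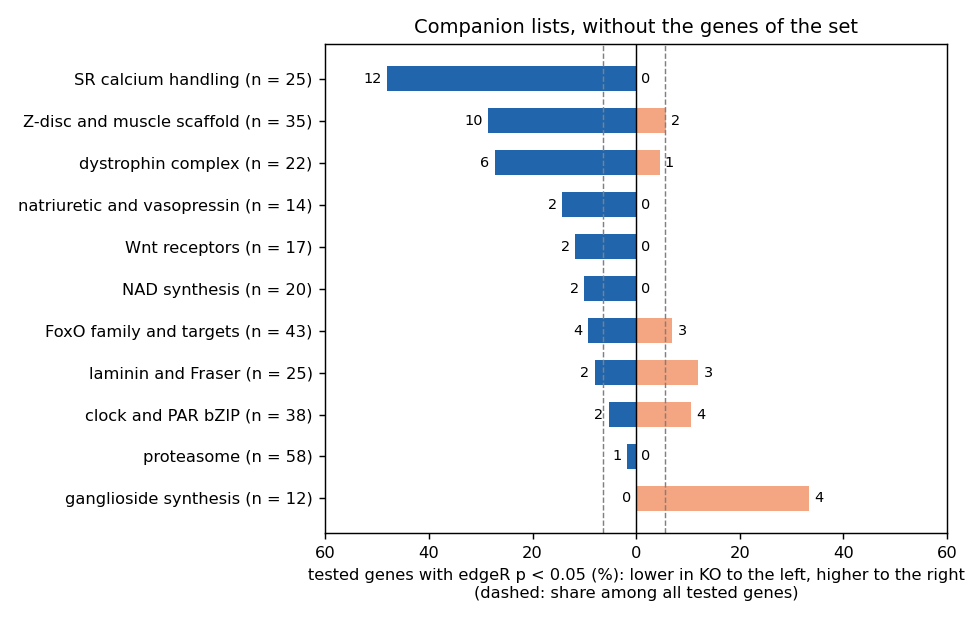
Share of tested genes in each list that were lower (left) or higher (right) in KO hearts at an unadjusted edgeR p under 0.05, with the number of genes beside each bar and dashed lines at the shares among all tested genes (6.42% lower, 5.64% higher). Lower genes reach 48.0% for SR calcium handling and 1.72% for the proteasome.

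The 24 genes lay on 15 chromosomes, and 9 of these held 1 gene each. The closest pair, *myoz1b* and *si:ch211-28p3.4* on chromosome 12, was 4.15 Mb apart. On either side, the nearest tested coding gene that could be placed by name was read from the gene order of the GRCz12tu assembly, for all 24. With 17879 genes tested, 6554 besides the 24 could be placed, so a neighbour here need not be the adjacent gene. Symbols for placing came from the annotation and from the study's gene table, whose rows used here rank high by the authors' test. Being placed is therefore not independent of this contrast. Among all tested genes 6.42% were lower and 5.64% were higher. Of 48 such neighbours, 10 were lower (20.8%, with 11.0% of all genes that could be placed) and 5 were higher (10.4%, with 10.6% of those placed). Some neighbours, named after their values were seen, are themselves muscle genes. Among the placed genes, *myoz1b* lies between *ldb3b* and *synpo2lb*, which were both lower (log2 fold changes -0.39 and -0.63), and *pkib* lies beside *trdn*. In the same order *nppal* lies beside *nppb*.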

How the data were processed

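RNA of 6 stranded libraries (3 KO pools, 3 WT pools) was read as 60-base single reads. The authors obtained reads with bcl2fastq 2.20.0.422, mapped them to the GRCz11 transcriptome of Ensembl 99 and deposited RSEM expected counts, neither normalized nor filtered, for each gene. Libraries were grouped by their titles, and the replicate is the pool, so p-values weigh the genotype difference against the spread between pools. Expected counts were rounded for edgeR 4.0.16 (R 4.3.3) with filterByExpr, TMM and no covariate. Standard errors are the log2 fold change over the root of F. Rule CPM used unrounded counts. Alternatives were DESeq2 1.42.0, limma 3.58.1 (voom), other scalings and filters, the replicate block and each library left out.

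Symbols and coordinates of the 24 genes came from 1264 rows of the study's gene table, which rank high by the authors' test. Its fold change and p-value columns were not used. Other genes were named from an annotation that often gives human symbols in capitals, so *FZD9* or *PSME4* stands for the copy not in the set. The members and lists were chosen with earlier results of these data known, the SR calcium list after the name *pln2* was seen. The text names all 24 genes, their relatives, the 3 genes next outside the limit and per list the called genes with the smallest p (up to 6) and the most highly counted gene. Some genes of the lists are not reported here. The fit was tested on simulated counts. Between 18.7% and 20.4% of values per library were not whole numbers. Python 3.11.15, numpy 2.4.6, pandas 2.3.3 and matplotlib 3.10.9 did the rest. No sequence is shown.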

Additional observations from a re-analysis of the deposited data

How the results depend on the processing

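All 24 genes stayed lower in KO hearts in each of the 13 other settings, as genes chosen for that direction would, with log2 fold changes of -0.44 or lower. The number of genes meeting the rule was less settled. It was 87 with TMM-scaled CPM, 85 with relative log expression size factors, 2 with a limit of 0.7, 126 with a limit of 0.9 and 1 over the cardiomyocyte marker sum, and it ran between 36 and 77 with 1 library left out, since fewer pools make the rule looser. With a KO mean of at least 1 CPM it was 32, and with at least 5 CPM it was 19. Across all genes, library size scaling gave 501 lower and 2081 higher genes, against 1148 and 1009 with TMM, and put the median over all tested genes at 0.13 on the log2 scale. With 1 library left out there were 676 to 1380 lower and 656 to 1392 higher genes, the fewest without KO replicate 4. At an adjusted p under 0.05 there was 1 gene in edgeR, 19 with library size scaling, 19 without a filter, 445 in DESeq2, 2 in limma-voom, 4 with the replicate block and 0 to 3 with 1 library left out. Replicate numbers 2 and 4 occur in both genotypes, but same-numbered pools did not deviate together (correlations of 0.0886 and 0.00236), so the numbers are not taken as pairs. The replicate block gave 958 lower and 1018 higher genes, and put *b4galnt1a* at -0.62 and *pln2* at -0.93. Under this block KO replicate 3 and WT replicate 1 have no partner, so its fold changes rest on replicates 2 and 4 of each genotype. Under the same block 1 dystrophin complex gene, 0 Wnt receptor genes and 0 proteasome genes were lower, 3 proteasome genes were higher, and the call of *MYOZ2* (ENSDARG00000037266) was lost at -0.28. The SR calcium list had 9 lower and 3 higher genes under the block, and 5 clock genes were lower. Of 312 counts over the lists and the relatives, 45 moved by over 1.5 times. With 3 pools a genotype, the spread between pools limits precision. The cause of these shifts was not tested.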
